A study of Mus musculus with 6 samples.

Results

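p53, the transcription factor encoded by Trp53, and 9 of its stress target genes were followed in mouse bone marrow-derived dendritic cells. The 10 genes were Trp53, Mdm2, Cdkn1a, Ccng1, Plk2, Phlda3, Bax, Bbc3, Pmaip1 and Gdf15. They were chosen by gene name as known members of the pathway, with a rise of Gdf15 in these data already known, and they are 10 of the 36706 genes listed for each library. All 10 passed the filter on low counts, which 14011 genes passed in all. The question was whether the rise of Gdf15 came together with a rise of other p53 targets.

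RNA was sequenced from wild-type cells that had been grown from bone marrow with GM-CSF, a growth factor of myeloid cells. In 3 libraries the cells had received interferon gamma (IFN-γ) and 4-octyl itaconate (4-OI), a membrane-permeable derivative of the metabolite itaconate, and in 3 libraries IFN-γ alone. Every library therefore came from IFN-γ-treated cells, and neither dose, time, age nor animal is given by the labels. The titles call the cells macrophages, whereas the cell type label and the growth protocol call them dendritic cells, and nothing says that replicates came from separate cultures, so the p-values speak only for the variation among 6 libraries, part of which may be technical.

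p53 is held at a low level by MDM2, a ubiquitin ligase that marks it for degradation and is itself a p53 target, so that much of p53's control acts on the protein and is not seen in Trp53 mRNA. When DNA damage or other stress frees p53, it switches on genes that stop the cell cycle, repair DNA, restrain growth signals or start apoptosis from mitochondria. Gdf15, which encodes a secreted stress cytokine of the TGF-β superfamily, is a p53 target but is also switched on by ATF4 and CHOP, the transcription factors of the integrated stress response.

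The promoter sequences of 5 of the genes are given here because their changes with 4-OI differed most in kind: Gdf15 and Plk2 had the largest rises, Mdm2 a smaller one, Cdkn1a did not pass the test and Ccng1 fell. Each sequence is the 250 bases before an annotated start in RefSeq on GRCm38.p6, written 5′ to 3′ on the gene's strand. Capitals mark matches, on either strand, to the 10-base consensus that each part of a p53 site follows or, in Plk2, to the cyclic AMP response element TGACGTCA.
Gdf15, chr8:70632457-70632706, minus strand: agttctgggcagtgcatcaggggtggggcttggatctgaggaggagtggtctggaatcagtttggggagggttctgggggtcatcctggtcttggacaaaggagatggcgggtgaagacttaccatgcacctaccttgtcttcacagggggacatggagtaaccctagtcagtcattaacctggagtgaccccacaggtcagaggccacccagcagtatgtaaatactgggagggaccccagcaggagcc
Plk2, chr13:110394794-110395043, plus strand: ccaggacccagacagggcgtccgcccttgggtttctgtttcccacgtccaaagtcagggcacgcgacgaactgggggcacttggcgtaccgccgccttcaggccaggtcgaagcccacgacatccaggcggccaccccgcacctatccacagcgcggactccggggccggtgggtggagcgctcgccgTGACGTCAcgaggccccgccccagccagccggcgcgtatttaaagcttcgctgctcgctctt
Mdm2, chr10:117710759-117711008, minus strand: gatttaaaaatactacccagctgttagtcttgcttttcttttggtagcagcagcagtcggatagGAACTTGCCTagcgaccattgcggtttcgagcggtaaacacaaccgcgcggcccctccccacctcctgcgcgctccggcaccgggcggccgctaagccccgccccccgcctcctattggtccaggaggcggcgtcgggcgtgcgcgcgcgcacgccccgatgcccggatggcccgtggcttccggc
Cdkn1a, chr17:29090729-29090978, plus strand: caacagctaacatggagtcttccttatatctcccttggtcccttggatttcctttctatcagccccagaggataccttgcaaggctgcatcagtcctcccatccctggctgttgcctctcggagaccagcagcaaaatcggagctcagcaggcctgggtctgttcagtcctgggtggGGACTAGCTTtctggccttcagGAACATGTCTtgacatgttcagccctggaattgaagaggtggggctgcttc
Ccng1, chr11:40755287-40755536, minus strand: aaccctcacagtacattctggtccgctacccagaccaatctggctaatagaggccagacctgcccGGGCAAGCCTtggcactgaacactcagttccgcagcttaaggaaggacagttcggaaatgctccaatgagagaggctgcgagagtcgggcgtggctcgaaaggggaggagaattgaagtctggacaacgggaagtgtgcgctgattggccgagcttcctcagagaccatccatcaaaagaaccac

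Windows were found for 9 of the 10 genes, with 13 starts between them. The p53 decamer consensus matched in 5 of the 13 windows, each before a start of a different gene: Trp53, Mdm2, Cdkn1a, Ccng1 and Bax. It matched in 7.13% of all 32851 such windows in the RefSeq table. Of those 5 genes, Trp53, Mdm2 and Bax rose with 4-OI, Ccng1 fell and Cdkn1a did not pass. The match in Ccng1 lay at positions -185 to -176 relative to the start and that in Mdm2 at -186 to -177. Cdkn1a, at the upstream of its 2 starts, had 2 matches, at -73 to -64 and at -51 to -42. In both windows of Gdf15 and in that of Plk2 the decamer was not found. The antioxidant response element core TGACNNNGC, which NRF2 binds, matched in Trp53, at -122 to -114, apart from the decamer match at -75 to -66, and in 10.2% of all windows. The ATF4-type element TGATGNAA was in none of the windows of these genes and in 3.45% of all windows. TGACGTCA matched in Plk2, at -62 to -55, and in 1.55% of all windows. A match is a description of the letters, and sites outside these windows were not searched.

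Total counts were 19656368 to 29244717 with IFN-γ and 4-OI and 21710639 to 27510232 with IFN-γ, and 3 counts in 1 library came to 0.109 to 0.163 CPM and 0.102 to 0.127 CPM (counts scaled to the library size with TMM factors), a limit that covers counting error only. The first principal component, with 79.5% of the variance, separated the groups. On the second, with 10.7%, IFN-γ+4-OI replicate 3 was at -14.4 against 12.4 and 5.84 for its replicates 1 and 2, and IFN-γ replicate 1 was at 32.0 against -19.1 and -16.8. Of 10 markers of conventional dendritic cells all were detected, and the lowest, Xcr1, had 0.709 ± 0.277 CPM with 4-OI and 0.405 ± 0.130 CPM without (SD, n = 3). All 8 macrophage markers were detected as well. They ran from Adgre1, at 1334 ± 8.58 and 875 ± 41.7 CPM, to C1qa, at 1.89 ± 1.19 and 2.87 ± 1.26 CPM. Detection therefore does not tell these cell types apart. With 4-OI, 1 of the 10 dendritic cell markers was higher and 7 lower, and 4 of 5 monocyte markers were lower. Among neutrophil markers 2 of 7 were higher and 5 lower, and all 5 tested mast cell and basophil markers were lower. Of 8 macrophage markers, 2 were higher and 1 lower. Over all 14011 genes tested, 22.7% were called higher and 25.4% lower. Summed levels of dendritic cell markers were 1770 to 1918 CPM with 4-OI and 2354 to 2684 CPM without, of macrophage markers 2688 to 2828 CPM and 2109 to 2188 CPM, and of neutrophil markers 1351 to 1968 CPM and 994 to 1500 CPM, which overlap. Such sums follow the most abundant genes. H2-Ab1, at 893 ± 69.8 and 1305 ± 175 CPM, was the largest part of the dendritic cell sum. Most of the neutrophil sum was S100a8, at 1099 ± 310 and 569 ± 209 CPM, and Ngp, at 453 ± 28.0 and 648 ± 65.2 CPM (SD, n = 3). B cell markers summed to 7.43 to 8.65 CPM with 4-OI and 9.18 to 10.1 CPM without, and T and NK cell markers to 4.13 to 5.11 CPM and 7.64 to 10.4 CPM. Mcpt4, of the mast cell list, had 0 counts in each library.

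With 4-OI, 6 of the 10 genes rose and 1 fell. Without Gdf15, whose rise was already known, 5 of 9 rose (55.6%) and 1 fell (11.1%). Gdf15 was 13.5-fold higher, Plk2 2.52-fold, and Trp53, Mdm2, Bax and Pmaip1 were 1.41 to 1.62-fold higher, while Ccng1 was 1.29-fold lower. Cdkn1a, Phlda3 and Bbc3 did not pass a Benjamini-Hochberg adjusted p of 0.05 in edgeR's quasi-likelihood test. Of all 14011 genes tested, 48.1% passed, 22.7% as higher and 25.4% as lower, so a call was common in this comparison. The split was 3181 higher and 3555 lower with TMM factors, and 1719 higher and 5452 lower with total-count scaling. Groups did not overlap for 7 of the 10 genes and for 6 of the 9 without Gdf15, against 59.5% of all genes. The median log2 fold change was 0.50 over the 10 genes, 0.49 over the 9 without Gdf15 and -0.01 over all genes tested. In these bulk libraries, fewer cells of a type and less RNA per cell cannot be told apart.

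**Figure D1:**
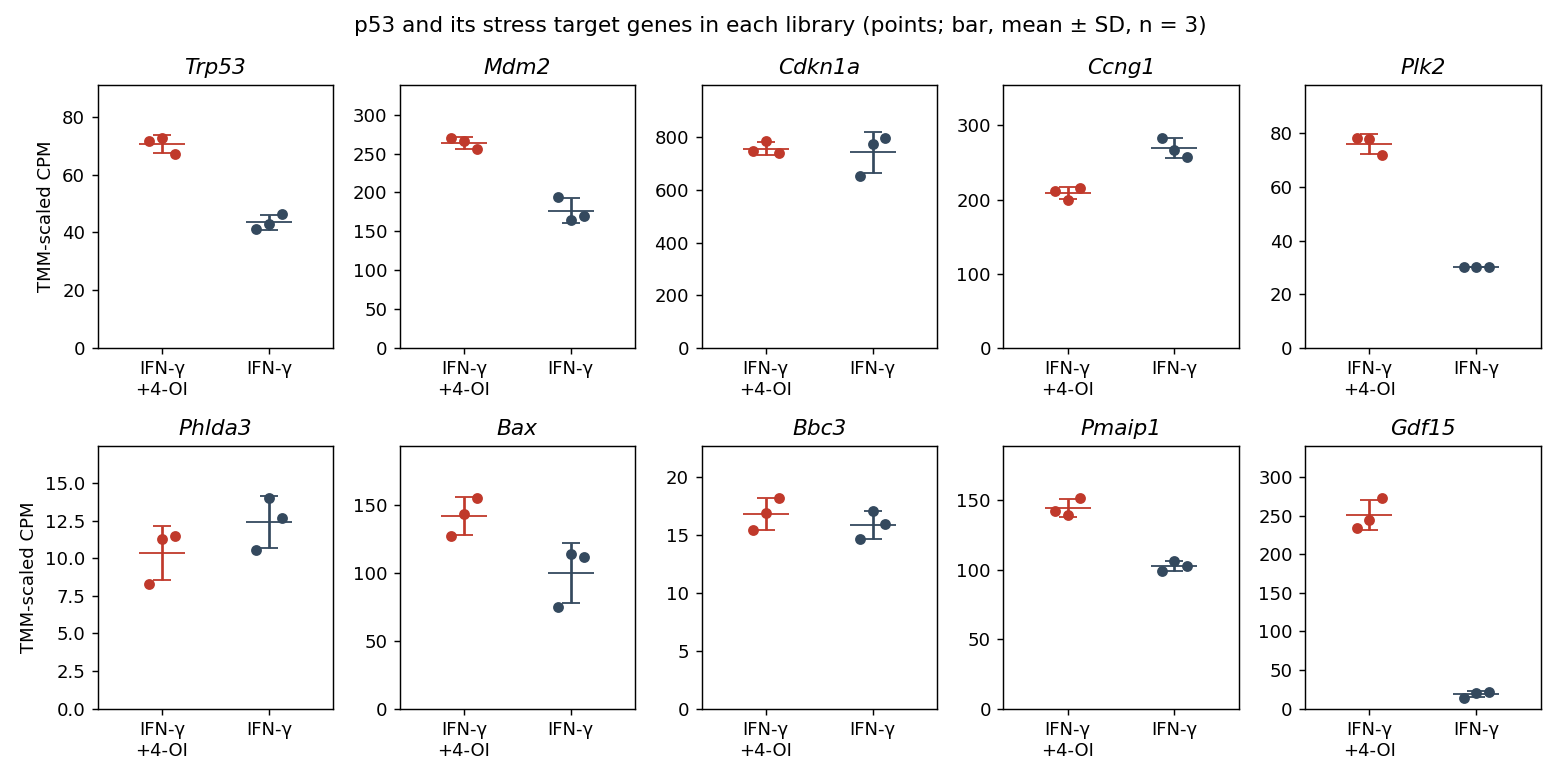
Level of each of the 10 genes in each library, as TMM-scaled CPM on linear axes that start at 0, with IFN-γ+4-OI (red) left of IFN-γ (blue); points are libraries and the bar is the mean ± SD of 3. Gdf15 averaged 251 CPM with 4-OI and 18.6 CPM without, while the libraries of both groups overlap for Cdkn1a, Phlda3 and Bbc3.

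Trp53, on chromosome 11 at 69471174 to 69482699 (plus strand), had 71.8, 72.9 and 67.3 CPM with IFN-γ and 4-OI, against 41.3, 42.8 and 46.4 CPM with IFN-γ. Every library with 4-OI was above every library without it, and the log2 fold change was 0.70 ± 0.08 (SE, edgeR adjusted p = 3.08e-04). Its exons shared no base with another gene, although Wrap53 begins 98 bases away on the opposite strand and was also higher, at 8.52 ± 0.331 and 6.83 ± 0.619 CPM (SD, n = 3, edgeR adjusted p = 0.0411). Mdm2, the ubiquitin ligase gene, on chromosome 10 at 117524780 to 117546663 (minus strand), had 271, 266 and 255 CPM with IFN-γ and 4-OI, against 195, 164 and 170.3 CPM with IFN-γ. These groups did not overlap either, with a log2 fold change of 0.58 ± 0.09 (SE, edgeR adjusted p = 0.00111). Mdm4, its relative that binds and restrains p53 without degrading it on its own, went the other way, at 167 ± 15.2 and 244 ± 58.3 CPM (SD, n = 3), a log2 difference of -0.55 ± 0.16 (SE, edgeR adjusted p = 0.0253). The p53 relatives Trp63 and Trp73 had at most 2 counts in a library and were not tested.

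Among the targets that act on the cell cycle, 1 rose, 1 fell and 1 did not pass. Cdkn1a encodes p21, the inhibitor of cyclin-dependent kinases through which p53 stops the cell cycle, and lies on chromosome 17 at 29309953 to 29319696 (plus strand). It had 747, 784 and 739 CPM with IFN-γ and 4-OI, against 653, 776 and 799 CPM with IFN-γ. The groups overlapped, the lowest library being IFN-γ replicate 1, and the log2 fold change was 0.03 ± 0.10 (SE, edgeR adjusted p = 0.849) with a 95% confidence interval of -0.21 to 0.27. A rise of the size seen for Mdm2 lies outside that interval. The sign of this small value turned in 3 alternatives, to -0.23 with total-count scaling, to -0.064 without IFN-γ replicate 1, and to -0.040 when both outlying libraries on the second component were left out.

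Ccng1 encodes cyclin G1, a p53 target that recruits a phosphatase to MDM2, and lies on chromosome 11 at 40639379 to 40646155 (minus strand). It had 212, 199 and 215 CPM with IFN-γ and 4-OI, against 284, 267 and 257 CPM with IFN-γ. All libraries with 4-OI were lower, and it fell by 0.37 on the log2 scale (SE 0.08, edgeR adjusted p = 0.00621). Its relative Ccng2, which is best known as a target of FOXO factors, rose, at 197 ± 7.65 and 140.2 ± 4.21 CPM with and without 4-OI (SD, n = 3, edgeR adjusted p = 0.00105).

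Plk2 encodes a polo-like kinase of the stress response and lies on chromosome 13 at 110531578 to 110537378 (plus strand). It had 78.4, 77.9 and 71.8 CPM with IFN-γ and 4-OI, against 29.99, 30.1 and 30.2 CPM with IFN-γ, where the libraries were nearly level. The log2 fold change was 1.34 ± 0.08 (SE, edgeR adjusted p = 9.45e-06). Its family divided: Plk3, also a stress kinase, rose 1.66-fold, to 29.3 ± 2.07 CPM with 4-OI against 17.7 ± 1.72 CPM, while the mitotic kinase Plk1 fell 4.18-fold and Plk4, which drives centriole duplication, 2.75-fold (edgeR adjusted p = 7.23e-04, 6.06e-06 and 2.60e-05).

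Phlda3 encodes a protein that competes with the kinase AKT for membrane lipids, and lies on chromosome 1 at 135693823 to 135696872 (plus strand). It had 8.30, 11.3 and 11.5 CPM with IFN-γ and 4-OI, against 10.5, 14.0 and 12.7 CPM with IFN-γ. The groups overlapped, and the log2 fold change of -0.25 ± 0.16 (SE, edgeR adjusted p = 0.221) had a 95% confidence interval of -0.62 to 0.11. It passed as lower without IFN-γ replicate 1 (log2 fold change -0.36, edgeR adjusted p = 0.0487), without both outlying libraries (-0.42, edgeR adjusted p = 0.00206) and with total-count scaling (-0.51, edgeR adjusted p = 0.0189). With total-count scaling the median of all genes was itself -0.27, and against that shift Phlda3 was at -0.25. Over the 16 alternatives its log2 fold change ran from -0.51 to -0.12 and the edgeR, DESeq2 or limma adjusted p from 0.00206 to 0.563. Phlda1, of the same family, rose, at 99.3 ± 19.7 CPM with 4-OI and 35.8 ± 4.89 CPM without (SD, n = 3, edgeR adjusted p = 1.96e-04).

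Of the 3 genes that start apoptosis at mitochondria, Pmaip1 and Bax rose and Bbc3 did not pass. Pmaip1 encodes NOXA, a BH3-only protein that neutralises MCL1, and lies on chromosome 18 at 66591675 to 66598629 (plus strand). It had 142, 139.7 and 152 CPM with IFN-γ and 4-OI, against 98.8, 106 and 103 CPM with IFN-γ. The groups were apart, with a log2 fold change of 0.49 ± 0.08 (SE, edgeR adjusted p = 0.00120).

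Bax, which encodes a pore-forming effector in the outer mitochondrial membrane, lies on chromosome 7 at 45111119 to 45116344 (minus strand). It had 127, 143 and 155 CPM with IFN-γ and 4-OI, against 74.6, 114 and 112 CPM with IFN-γ. The groups did not overlap, but IFN-γ replicate 1 was well below its replicates, and the log2 fold change of 0.50 ± 0.17 (SE) passed narrowly (edgeR adjusted p = 0.0376). The call was lost with upper quartile factors, with total-count scaling and without IFN-γ+4-OI replicate 2 or 3 (edgeR adjusted p = 0.0528, 0.205, 0.0976 and 0.124). Over all alternatives the adjusted p ran from 2.33e-05 to 0.205. Without IFN-γ replicate 1 the log2 fold change was 0.32, and without both outlying libraries 0.26. The nearest tested gene, Ftl1, which encodes ferritin light chain, lies 1809 bases away on the same strand, and had 35003 ± 943 CPM with 4-OI and 9103 ± 1196 CPM without (SD, n = 3, edgeR adjusted p = 2.22e-05). Whether reads of that neighbour enter the Bax count was not tested.

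Bbc3 encodes PUMA, a BH3-only protein that binds all survival proteins of the BCL2 family, and lies on chromosome 7 at 16042307 to 16052259 (plus strand). It had 15.4, 16.9 and 18.2 CPM with IFN-γ and 4-OI, against 14.6, 17.0 and 15.9 CPM with IFN-γ. The groups overlapped, with a log2 fold change of 0.09 ± 0.10 (SE, edgeR adjusted p = 0.526) and a 95% confidence interval of -0.15 to 0.32. The value became -0.17 with total-count scaling and -0.024 without both outlying libraries. Among other death genes, Bok rose, at 2.14 ± 0.350 CPM with 4-OI and 0.370 ± 0.0807 CPM without (SD, n = 3, edgeR adjusted p = 1.41e-04). Bcl2l11, which encodes BIM, was 1.23-fold lower (edgeR adjusted p = 0.0259). Bid, Bmf, Bak1 and Bad did not pass, with log2 fold changes of 0.18, -0.14, -0.10 and -0.03, and Bik and Hrk, with at most 9 counts in a library, were not tested.

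Gdf15, on chromosome 8 at 71082043 to 71085106 (minus strand), had 234, 245 and 273 CPM with IFN-γ and 4-OI, against 14.0, 20.3 and 21.5 CPM with IFN-γ. The lowest library with 4-OI was far above the highest without it. The log2 fold change of 3.75 ± 0.17 (SE, edgeR adjusted p = 3.07e-06) had a 95% confidence interval of 3.36 to 4.15, which does not reach that of Plk2, the next largest, at 1.15 to 1.52. Of the 14011 genes tested, 57 had a larger log2 fold change than Gdf15. It ran from 3.49 to 3.88 over the alternatives. Of the 5 nearest tested genes Lrrc25 and Ssbp4 fell, Ell rose and Pgpep1 and Isyna1 did not pass, and their log2 fold changes ran from -1.42 to 0.29. Lrrc25, 8542 bases away, had 27.9 ± 1.52 CPM with 4-OI and 58.5 ± 4.00 CPM without (SD, n = 3, edgeR adjusted p = 4.79e-05), and Pgpep1, 13980 bases away, had 32.3 ± 1.59 and 31.4 ± 1.34 CPM (edgeR adjusted p = 0.734).

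**Figure D2:**
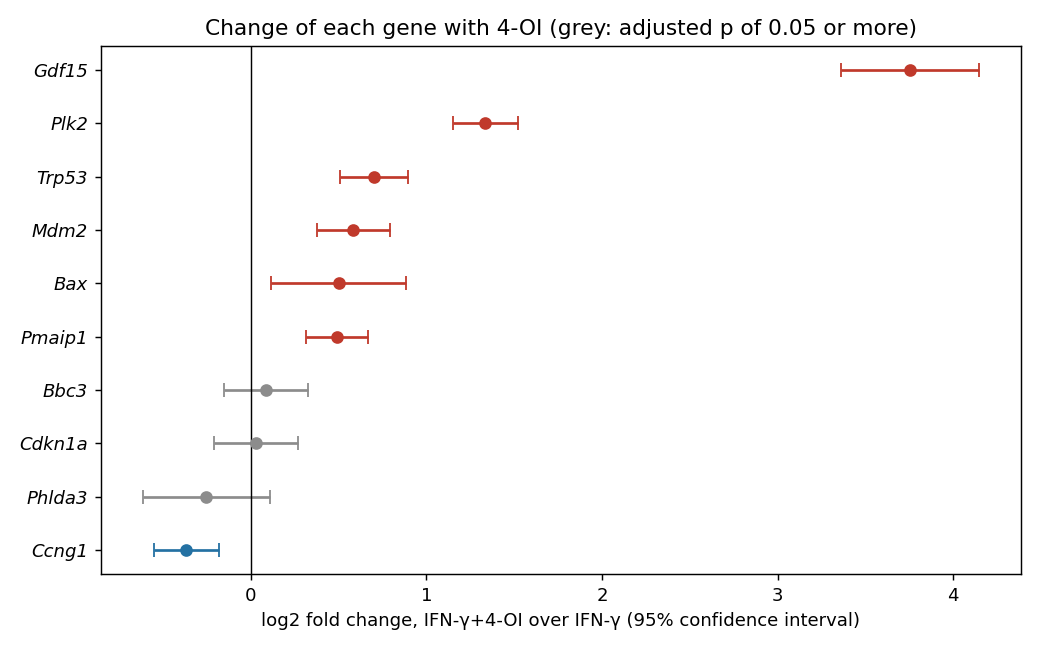
Fitted log2 fold change of each gene, IFN-γ+4-OI over IFN-γ, with its 95% confidence interval; red genes passed as higher, blue as lower and grey did not pass. Gdf15 stands at 3.75 and the other 9 genes between -0.37 and 1.34.

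Levels of different genes were compared as the deposited TPM, which divides by gene length and is not TMM-scaled. TPM was not tested between the groups. In TPM the groups did not overlap for Cdkn1a, Phlda3 and Bbc3, each lower with 4-OI, whereas they overlapped in TMM-scaled CPM. Cdkn1a was the highest of the 10 in both groups, at 659 ± 73.7 TPM with 4-OI and 837 ± 27.0 TPM without (SD, n = 3), and Bbc3 the lowest, at 7.41 ± 0.398 and 9.11 ± 0.430 TPM. Gdf15 was the third with 4-OI, at 238 ± 6.79 TPM, against the eighth with IFN-γ alone, at 22.9 ± 2.85 TPM. With 4-OI it stood just below Bax, whose 266 ± 16.8 TPM did not overlap it over the 3 libraries. With IFN-γ alone its neighbours, Plk2 at 24.9 ± 2.80 TPM and Phlda3 at 19.3 ± 0.775 TPM, overlapped it. Ccng1 was the fourth with 4-OI, at 105 ± 7.40 TPM, and the third without, at 177 ± 29.0 TPM.

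**Figure D3:**
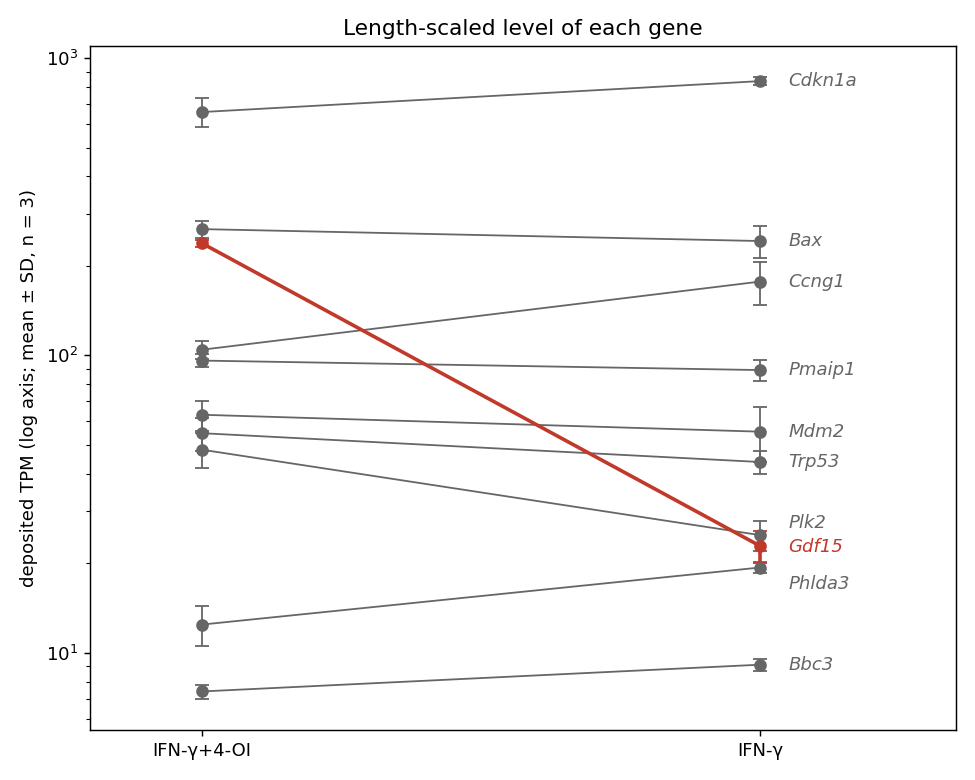
Mean deposited TPM ± SD of 3 libraries for each gene on a log axis, IFN-γ+4-OI at the left and IFN-γ at the right, with a line joining the same gene. Gdf15 (red) crosses 5 genes, standing at 238 TPM with 4-OI and 22.9 TPM without. TPM is not TMM-scaled, so the slope of a line is not a tested change.

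A wider list of 30 other p53 targets, chosen with earlier results of these data known, moved mostly downward or did not pass. Of the 30, 5 were higher with 4-OI (16.7%), 13 lower (43.3%) and 12 did not pass, against 22.7% higher and 25.4% lower over all genes, with a median log2 fold change of -0.15 against -0.01. Together with the 8 targets described above, Gdf15 left aside, 9 of 38 were higher and 14 lower, with a median of -0.09, and their log2 fold changes ran from -1.75 to 1.34. Only 2 of the 38, Plk2 and Gadd45a, were called and at least 2-fold higher. Of the 30, the number lower was 7 without IFN-γ+4-OI replicate 2 and 8 without IFN-γ+4-OI replicate 3. Over all genes those fits called 2815 of 14108 and 2985 of 14104 as lower, so the lean downward was weaker there. Without both outlying libraries 17 were lower, against 4695 of 14086 genes. The number higher was 4 to 7 over the alternatives.

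The 5 that rose were Ak1, Gadd45a, Plk3, Trp53inp1 and Xpc. Gadd45a, a sensor of DNA damage and other stress that activates MAP kinases, had 55.5 ± 8.58 CPM with 4-OI and 24.1 ± 4.37 CPM without (SD, n = 3), a log2 difference of 1.20 ± 0.16 (SE, edgeR adjusted p = 5.59e-04). Ak1, an adenylate kinase, had 7.49 ± 0.312 and 4.13 ± 0.150 CPM (edgeR adjusted p = 3.42e-04). The largest fall was that of Perp, a membrane protein of desmosomes and p53-driven apoptosis, with 2.08 ± 0.347 CPM with 4-OI and 6.98 ± 0.627 CPM without (log2 difference -1.75 ± 0.16, SE, edgeR adjusted p = 7.25e-05). Polh, a DNA polymerase that copies past ultraviolet lesions, fell 1.73-fold and Dcxr, a carbonyl reductase, 2.29-fold (edgeR adjusted p = 3.58e-04 and 5.88e-04). Xpc, which recognises damaged DNA, rose 1.42-fold, while Ddb2, which also recognises it, fell 1.84-fold (edgeR adjusted p = 0.00208 and 0.00205). Polk and Ercc5, of lesion bypass and excision repair, were called lower as well, with log2 fold changes of -0.37 and -0.26, and Rrm2b, a subunit of ribonucleotide reductase, did not pass, at 0.05. Ddb2, Xpc, Polk, Ercc5, Rrm2b, Trp53inp1 and the genes of the next sentence were named after their values were seen. The death receptor gene Fas and the nuclease gene Aen had log2 fold changes of 0.00 and 0.01, with 95% confidence intervals of -0.27 to 0.28 and -0.22 to 0.25.

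Of 22 genes that control p53, 2 were higher (9.09%) and 5 lower (22.7%), against 22.7% higher and 25.4% lower over all genes. Their median log2 fold change was -0.03. This list, too, was chosen with earlier results of these data known. Cop1, a ubiquitin ligase of p53, had 93.0 ± 1.70 CPM with 4-OI and 58.0 ± 5.33 CPM without (SD, n = 3, edgeR adjusted p = 5.41e-04). Ppm1d, a p53-induced phosphatase that switches the damage response off, had 16.2 ± 1.82 and 11.1 ± 0.0850 CPM (edgeR adjusted p = 0.00372). In the damage response, the kinase genes Chek1, Prkdc and Atr were 1.76-fold, 1.95-fold and 1.58-fold lower (edgeR adjusted p = 0.00562, 0.0190 and 0.0259). The kinase genes Atm, Chek2 and Hipk2 did not pass, at -0.49, -0.17 and -0.42 on the log2 scale. Atr, Atm, Chek2 and Hipk2 were named after their values were seen. Chek1 also stands in the list of cell cycle genes described next. Ppp1r13b, a cofactor that steers p53 to apoptotic targets, was 1.55-fold lower (edgeR adjusted p = 0.00406). In Prkdc, Atr and Mdm4 the spread between IFN-γ libraries was wide, at 22.8 ± 9.68, 31.7 ± 9.41 and 244 ± 58.3 CPM. IFN-γ replicate 1, outlying on the second component, was the highest library in each. Prkdc had 33.9 CPM there, against 16.9 and 17.4 CPM in IFN-γ replicates 2 and 3. For Atr these values were 42.5, 25.7 and 26.8 CPM, and for Mdm4 311, 207 and 214 CPM.

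Of 28 cell cycle genes known to be repressed by p21 through the DREAM complex, 26 were lower (92.9%), against 25.4% of all genes. Their median log2 fold change was -2.12, against -0.01 over all genes, while Cdkn1a itself did not pass. Whether p21 had a part in this fall was not tested. The list was chosen with earlier results of these data known. Ccna2, cyclin A2, had 6.90 ± 0.419 CPM with 4-OI and 33.8 ± 0.568 CPM without (SD, n = 3, edgeR adjusted p = 2.17e-06), and Kif23 and Ccnb1 fell 5.53-fold and 5.38-fold. E2f1 and Mcm2, named after their values were seen, did not pass, with log2 fold changes of 0.02 and 0.05. Among other inhibitors of the Cdkn1a family, Cdkn1c, which encodes p57, rose, at 9.18 ± 0.899 CPM with 4-OI and 0.768 ± 0.234 CPM without (edgeR adjusted p = 8.42e-06). Cdkn1b, which encodes p27, had 196 ± 18.4 and 207 ± 13.8 CPM (edgeR adjusted p = 0.512). Markers of mast cells and basophils, summed, were at 42.1 to 48.3 CPM with 4-OI and 115 to 121 CPM without, and monocyte markers at 849 to 957 CPM and 1655 to 2165 CPM. Their part in the fall of cell cycle genes, or in any change described here, was not tested.

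Gdf15 was also set beside lists of other stress programs. These lists were chosen with earlier results of these data known, so their shares are descriptions and not independent tests. Of 23 genes of the ATF4 and CHOP program, 12 were higher (52.2%) and 8 lower (34.8%), with a median of 0.50. Over all genes 22.7% were higher and 25.4% lower, so this list had more calls than all genes in both directions. Slc3a2 and Slc7a11, subunits of amino acid transporters, and Atf3, a stress transcription factor, rose 2.45-fold, 3.09-fold and 1.99-fold (edgeR adjusted p = 3.67e-05, 1.01e-04 and 4.64e-05), while Slc7a5, Nupr1 and Psat1 fell 3.22-fold, 3.61-fold and 1.88-fold (edgeR adjusted p = 8.73e-06, 1.55e-05 and 6.36e-05). Atf4 itself and Ddit3, the gene of CHOP, were named after their values were seen: they had 484 ± 32.4 and 256 ± 31.8 CPM, and 41.3 ± 1.58 and 27.8 ± 5.36 CPM, with and without 4-OI (SD, n = 3, edgeR adjusted p = 3.63e-04 and 0.0107). Sesn2, also named after its value was seen, which is a target of both p53 and ATF4 and stands in both lists, was 1.48-fold lower (edgeR adjusted p = 0.00788). All 20 targets of NRF2, the oxidative stress factor, were called higher, against 22.7% of all genes, with a median of 1.97. Gclc, Srxn1 and Gclm, which serve glutathione synthesis and peroxiredoxin repair, rose 12.8-fold, 15.7-fold and 9.49-fold (edgeR adjusted p = 1.70e-06 for Gclc and 1.90e-06 for the others). Slc7a11 stands in the NRF2 list as well.

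**Figure D4:**
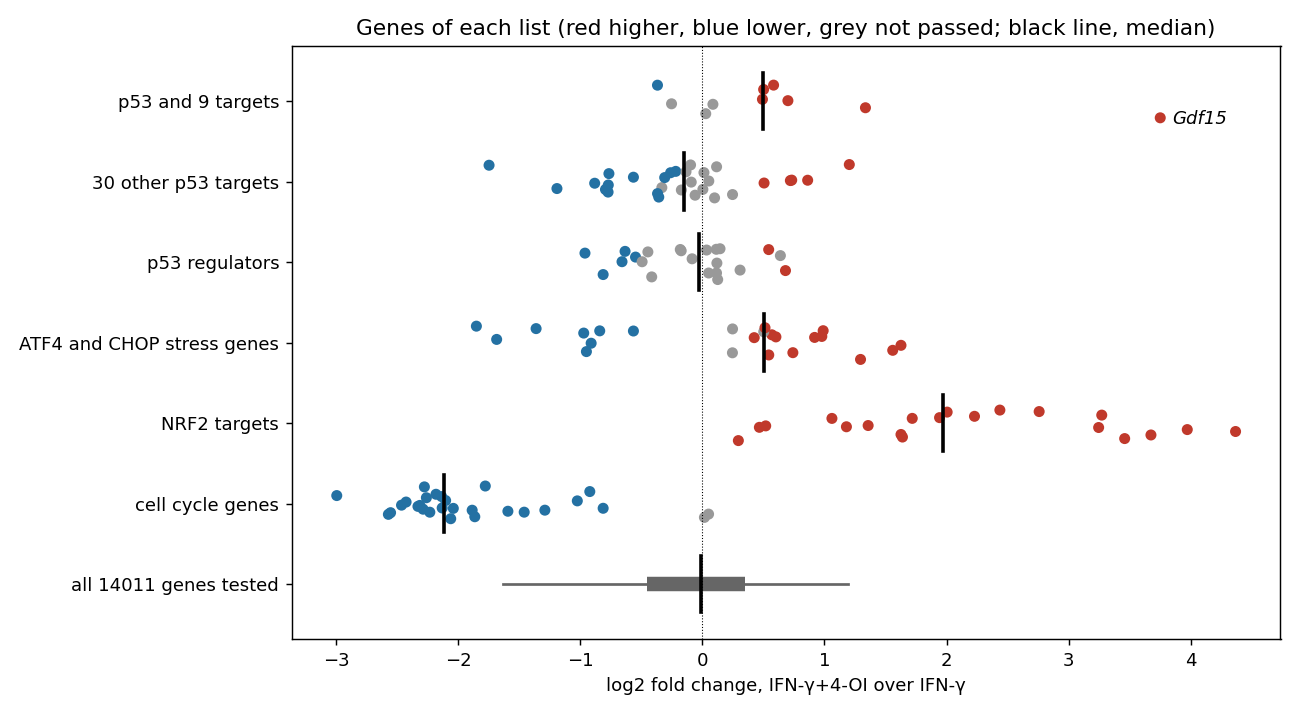
Log2 fold change, IFN-γ+4-OI over IFN-γ, of each tested gene of 6 lists (points; red higher, blue lower, grey not passed; vertical position within a row is arbitrary), with the median as a black line; the bottom row gives the middle 50% (thick) and 90% (thin) of all genes tested. Gdf15 lies apart from the other p53 genes, among the upper NRF2 targets.

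The genes whose profile over the 6 libraries lay closest to that of Gdf15 were Cd36, Gsta3, Styk1, Nol3 and Afp. Closeness was the Euclidean distance between log2 CPM centred on each gene's mean with IFN-γ, and was 0.244 for Cd36 and 0.409 for Afp. Cd36, a scavenger receptor for oxidised lipids, had 701 ± 25.9 CPM with 4-OI and 51.0 ± 6.26 CPM without, and Gsta3, a glutathione transferase, 39.3 ± 4.54 and 2.82 ± 0.605 CPM (SD, n = 3). Nol3, an inhibitor of cell death, had 12.1 ± 0.802 and 0.937 ± 0.157 CPM. Afp had 22.2 ± 1.43 and 1.37 ± 0.409 CPM, and Styk1, at 2.22 ± 0.227 and 0.114 ± 0.0306 CPM, was near the level of 3 counts without 4-OI. By its construction this measure picks genes with nearly the fold change of Gdf15.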

How the data were processed

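Gene expression was measured by stranded mRNA sequencing, per the labels' protocols. The authors deposited raw counts, TPM and FPKM per gene. HISAT2 and mm10 come from the submitters' processing notes. The read counter, its strand setting and the annotation were not given in the sources used here. Deposited TPM were used only to rank genes. None of the 10 genes had the start that RefSeq gives on GRCm38.p6, though 6 had the same span, so gene coordinates are those of the deposited tables, on an assembly that may differ from mm10, and promoter sequences are RefSeq's.

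Counts were tested over all genes with edgeR 4.0.16 in R 4.3.3: filterByExpr (minimum count 10), TMM factors, robust quasi-likelihood test, Benjamini-Hochberg adjustment at 0.05. The SE of an edgeR log2 fold change was its absolute value divided by the square root of the test's F statistic. Confidence intervals use this SE. Limma 3.58.1 (voom) and DESeq2 1.42.0 were alternatives. The method was checked on simulated data in which 200 genes were changed. As 6736 genes were called here, that check does not cover a comparison with so many changes. Replicates differed beyond sampling noise (lowest chi-square per gene 4.29). The members, lists and naming rule were chosen with earlier results of these data known: all members and their tested relatives, of each list the 3 smallest adjusted p in each direction, and the 5 genes nearest to Gdf15 (log2 CPM, prior count 2). Predicted genes and pseudogenes were left out of the last.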

Additional observations from a re-analysis of the deposited data

How the results depend on the processing

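Trp53, Mdm2, Plk2, Pmaip1, Gdf15 and Ccng1 kept their direction and their side of the threshold in all 16 alternatives tried: RLE, upper quartile or no scaling factors, no filter, 1 CPM in 3 libraries, DESeq2, limma-voom, the replicate block, each library left out, both libraries that stood apart left out, and Gm42418, a gene resembling ribosomal RNA, left out. With total-count scaling the median of all genes was -0.27, and the share of higher calls to 24.0% from 47.2%. Against that shift Cdkn1a (-0.23) was at 0.04, Bbc3 (-0.17) at 0.09, Phlda3 (-0.51) at -0.25 and Bax (0.24) at 0.51. Without both libraries that stood apart, Cdkn1a had -0.040 and Bbc3 -0.024, and Cdkn1a ran from -0.064 (without IFN-γ replicate 1) to 0.095 (without IFN-γ replicate 3) over single libraries left out; the cause was not tested. The number of the 10 genes called lower was 2, Phlda3 with Ccng1, with total-count scaling, without IFN-γ replicate 1 and without both outlying libraries, and 1 to 2 without single libraries; 5 to 6 were called higher. Of the 30 other targets, 7 were lower at an adjusted p of 0.01, against 2482 of all 14011 genes. Without single libraries 7 to 14 of the 30 were lower, against 2815 to 4044 of all genes tested. All genes called were 4561 to 9296. Same-numbered libraries did not deviate together in every pair (r = 0.26, -0.10 and 0.19). With the replicate block 7513 genes were called, 6 of the 10 as higher and 1 as lower, and each of the 10 stayed on its side. Fits that leave 2 libraries in a group rest on few degrees of freedom.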
